A study of Mus musculus with 6 samples.

Results

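The TGF-beta, activin and BMP pathway was examined in wild-type (wt) embryonic mouse pancreata through 46 listed genes that code for its ligands, receptors, extracellular binding proteins, SMADs and ID targets. The list was matched by symbol to the gene identifiers of the deposited count table, and all 46 were found among its 37224 genes. RNA of whole pancreata was sequenced in 3 independent samples per stage, taken 13.5 or 15.5 days after coitum (dpc). All 6 samples were of the wild type genotype and the strain given as C57/Bl6J, with no treatment, and each pooled the pancreata of up to 3 embryos. The comparison asks how the pathway's transcripts differed between an earlier and a later stage of the secondary transition, when acinar, duct and endocrine cells arise from pancreas progenitors. In whole-organ RNA, fewer cells of a type and less RNA per cell cannot be told apart.

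Ligands of this family bind complexes of type I and type II serine/threonine kinase receptors, which phosphorylate receptor-regulated SMADs. TGF-beta, activin and GDF11 signal through SMAD2 and SMAD3, and BMPs through SMAD1, SMAD5 and SMAD9, and both branches share SMAD4. Secreted antagonists hold ligands away from receptors, inhibitory SMADs and SMURF ubiquitin ligases limit the signal inside the cell, and the *Id* genes are classical BMP targets. In the pancreas the pathway is known for roles in mesenchyme-to-epithelium signalling and in the balance between endocrine and exocrine cells.

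The libraries held 10546028 to 16389237 counts on genes. No marker of the 10 cell type lists was at 0 counts, and all 7 acinar markers were called higher at 15.5 dpc, so the defining markers of the labelled tissue were present. Epithelial markers were higher for 4 of 6, whereas of 7 mesenchymal markers *Dcn* and *Lum* were higher and *Pdgfra* was lower. Macrophage markers were lower for 4 of 5, and those of endothelium were called in neither direction. Of 6 endocrine markers *Neurog3* and *Chgb* were lower, and the summed level of all 6 was 1141 to 1220 TPM (counts per exon length, scaled to one total per library) at 13.5 dpc and 656.5 to 823.6 TPM at 15.5 dpc. Smooth muscle and pericyte markers were higher for 2 of 5 and lower for 1 (median log2 fold change 0.78), those of neurons and glia higher for 1 of 5 and lower for 2 (median -0.33), of erythroid cells higher for 1 of 4 and lower for 2, and of mesothelium 1 of 4 in each direction. The summed level of the acinar markers differed within the 15.5 dpc stage, at 114300, 70130 and 86480 TPM in replicates 1, 2 and 3, against 11580 to 14710 at 13.5 dpc. The summed level of the mesenchymal markers was 4164 to 4831 TPM at 13.5 dpc and 1941 to 3868 TPM at 15.5 dpc. TPM were shifted between stages, with a median over all genes tested of -0.50 on the log2 scale. On the normalised counts the median was -0.20 for the 7 mesenchymal markers and -0.11 for the 6 endocrine markers. The part of these markers in the results below was not tested, but the counts of called members are also given without single libraries.

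The pathway's genes were more often lower than higher at 15.5 dpc. Of the 45 members that passed the filter on low counts, 13 were called lower by edgeR's quasi-likelihood test at a Benjamini-Hochberg adjusted p of 0.05, where 10.7% of all genes tested were. Another 4 were called higher, where 11.6% of all genes were. The lower ones were the ligands *Tgfb2*, *Bmp4* and *Gdf11*, the receptors *Tgfbr1*, *Bmpr1a* and *Tgfbr3*, the extracellular proteins *Chrd* and *Ltbp1*, the SMADs *Smad4*, *Smad5*, *Smad9* and *Smad7*, and the ligase *Smurf1*. The higher ones were *Inhbb*, *Gdf10*, *Fstl3* and *Id2*. The median log2 fold change of the 45 was -0.26, beside -0.01 over all 15578 genes tested, and 32 of the 45 values were negative. In 20 members every 15.5 dpc sample lay below every 13.5 dpc sample, where 23.6% of all genes did, and in 5 every one lay above, where 22.8% did. With the study's own thresholds (adjusted p of 0.1, more than 100 normalised counts, fold below 0.6 or above 1.6), *Gdf10* and *Fstl3* were higher, where 6.3% of all genes were, and *Gdf11*, *Tgfbr1* and *Ltbp1* lower, where 3.58% were. The remaining member, the activin A subunit *Inhba*, had 4 to 7 counts per library and was not tested.

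**Figure D1:**
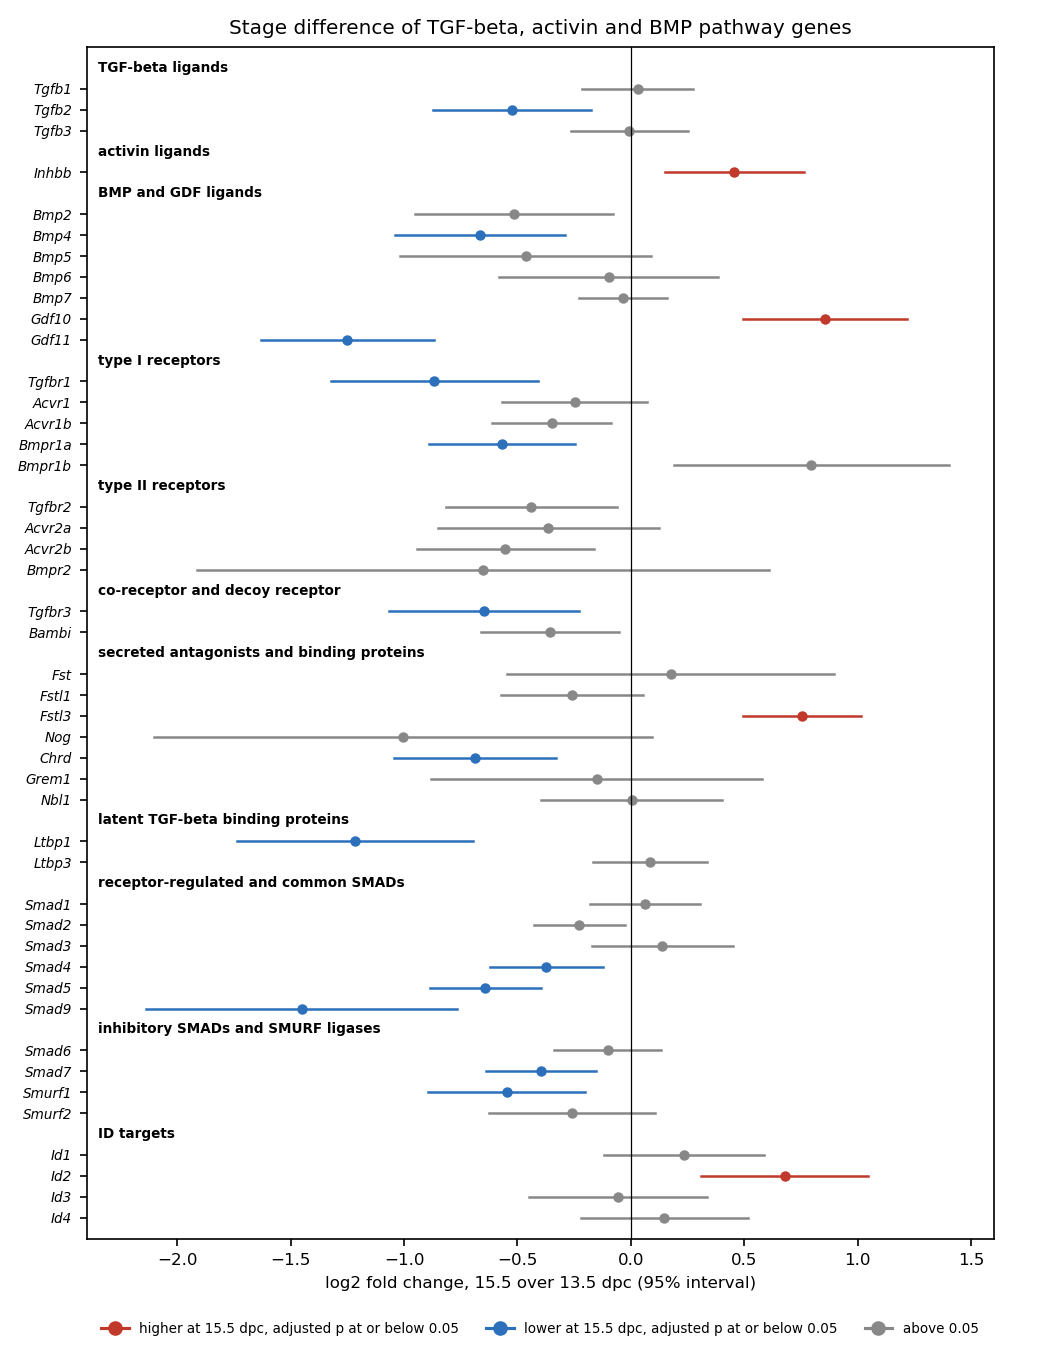
Log2 fold change of 15.5 over 13.5 dpc for the 45 members tested, ordered by class, with points for the estimate and lines for its 95% interval. The 4 members in red and the 13 in blue met an adjusted p of 0.05, and the intervals of *Bmpr2* and *Nog* were the widest.

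The sequences upstream of 3 members are given because *Gdf11*, *Smad5* and *Fstl3* were the members whose call at an adjusted p of 0.05 held in each of the 16 alternative fits. Under the study's thresholds, which also set a size, *Smad5* was not called. They come from the RefSeq promoter table of GRCm38.p6, the patch build of mm10, and each holds the 250 bases before an annotated transcription start. Capitals mark CAGAC and GTCTAGAC, which SMAD proteins are known to bind, GGCGCC, a GC-rich element of BMP targets, GGCGGG, the GC box, and TATAAA, the TATA box, on either strand. None of these 5 strings contains another.

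*Gdf11*, chr10:128891719-128891968, minus strand: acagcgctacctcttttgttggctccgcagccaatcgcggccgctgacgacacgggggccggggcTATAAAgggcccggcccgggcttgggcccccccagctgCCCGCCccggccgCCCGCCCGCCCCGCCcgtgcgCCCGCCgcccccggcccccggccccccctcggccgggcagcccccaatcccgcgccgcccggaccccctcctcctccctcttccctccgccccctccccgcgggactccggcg

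*Smad5*, chr13:56702760-56703009, plus strand: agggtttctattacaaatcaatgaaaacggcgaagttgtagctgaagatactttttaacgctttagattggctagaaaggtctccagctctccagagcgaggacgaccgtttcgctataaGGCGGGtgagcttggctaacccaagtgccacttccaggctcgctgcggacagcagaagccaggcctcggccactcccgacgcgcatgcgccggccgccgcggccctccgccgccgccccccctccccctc

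*Fstl3*, chr10:79777024-79777273, plus strand: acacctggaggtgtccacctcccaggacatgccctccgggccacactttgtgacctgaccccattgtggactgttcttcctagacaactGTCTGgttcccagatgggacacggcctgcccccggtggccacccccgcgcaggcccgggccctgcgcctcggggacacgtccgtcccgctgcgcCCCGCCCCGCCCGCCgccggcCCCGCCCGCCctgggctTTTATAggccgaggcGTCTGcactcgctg

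The *Fstl3* window held 2 CAGAC, 5 GGCGGG and 1 TATAAA, the *Gdf11* window 5 GGCGGG and 1 TATAAA, and the *Smad5* window shown 1 GGCGGG. The table holds 2 further *Smad5* windows at later starts, of which chr13:56702802-56703051 overlaps the one shown and held 1 GGCGCC and 1 GGCGGG, and chr13:56703418-56703667 held 1 CAGAC and 7 GGCGGG. Of 32817 windows of this length in the table, 42.2% held CAGAC, 9.59% GGCGCC, 0.168% GTCTAGAC, 32.5% GGCGGG and 12.4% TATAAA. Among members, 35 had a window, with 41 windows in all. *Smad5*, *Ltbp1*, *Tgfbr1* and *Bmpr1b* had more than 1, and each window is counted separately. CAGAC was present in 2 of 4 windows of members called higher, in 6 of 14 of those called lower and in 11 of 22 of those not called. GGCGCC was present in 1 of 4, 5 of 14 and 5 of 22 windows, GGCGGG in 3, 10 and 17, TATAAA in 1, 2 and 1, and GTCTAGAC in none of them. These are matches of letters and not sites, and the absence of a match says nothing of a factor.

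Of the 3 TGF-beta isoforms, *Tgfb2* was called lower. It had 211, 221 and 243 normalised counts at 13.5 dpc and 132, 183 and 154 at 15.5 dpc. Normalised counts are counts scaled to a common library size with TMM factors, and are given for replicates 1, 2 and 3 in that order. All 15.5 dpc samples of *Tgfb2* lay below the 13.5 dpc samples, and its log2 fold change was -0.52 ± 0.15 (SE, n = 3 per stage, edgeR adjusted p = 0.043). The call of *Tgfb2* was lost under a block for the replicate number (edgeR adjusted p = 0.061). It was also lost without any 1 of the 13.5 dpc samples or without 15.5 dpc replicate 3 (0.11 to 0.16). *Tgfb1* and *Tgfb3* overlapped between stages, with 95% intervals of the log2 fold change of -0.21 to 0.28 and -0.27 to 0.25. As a share of the summed level per length of the 3 isoforms, *Tgfb2* made up 15.5 to 17.5% at 13.5 dpc and 10.6 to 13.5% at 15.5 dpc. Such a share is taken within a sample and so does not depend on a scaling factor of the library. A trend of a library with gene length would alter it, and no such trend was removed from the shares. With 3 samples against 3, an exact two-sided permutation test cannot give a p below 0.1, so shares and sums are given without one.

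The activin B subunit *Inhbb* was higher at 15.5 dpc. It had 60.1, 62.6 and 60.3 normalised counts at 13.5 dpc and 81.7, 82.8 and 86.9 at 15.5 dpc, so the stages were separate and replicates close. The log2 fold change was 0.46 ± 0.13 (SE, n = 3, edgeR adjusted p = 0.045). The call of *Inhbb* was lost with DESeq2 (adjusted p = 0.092) and with library size only, where the log2 fold change was 0.25 (edgeR adjusted p = 0.23), and in 4 other fits with all samples.

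BMP and GDF ligands moved in both directions. *Gdf11*, which is known to restrict the number of endocrine progenitors in the embryonic pancreas, had 607, 588 and 547 normalised counts at 13.5 dpc and 184, 283 and 262 at 15.5 dpc. Every 15.5 dpc sample was lower, and the mean was 2.38-fold lower, a log2 fold change of -1.25 ± 0.16 (SE, n = 3, edgeR adjusted p = 0.0027). *Gdf11* lies on chromosome 10 at 128882295 to 128891718 (mm10).

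*Gdf10*, also called BMP3B, went the other way. It had 70.2, 90.0 and 70.4 normalised counts at 13.5 dpc and 127, 147 and 142 at 15.5 dpc, with no overlap and a log2 fold change of 0.86 ± 0.15 (SE, n = 3, edgeR adjusted p = 0.0091). *Bmp4*, a ligand made by many mesenchymes, had 98.4, 96.0 and 87.6 normalised counts at 13.5 dpc and 51.2, 68.5 and 56.7 at 15.5 dpc. It was lower in all 15.5 dpc samples, by 0.67 on the log2 scale (SE 0.16, n = 3, edgeR adjusted p = 0.025). The call of *Bmp4* was lost under a block for the replicate number (edgeR adjusted p = 0.053). It was also lost without any 1 of the 13.5 dpc samples or without 15.5 dpc replicate 3 (0.074 to 0.10).

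*Bmp7* led this class by level per length, with a mean over the 6 samples of 87.1 TPM, and was almost level between stages. It had 1847, 1812 and 1894 normalised counts at 13.5 dpc and 1890, 1737 and 1797 at 15.5 dpc. The stages overlapped and the 95% interval of its log2 fold change was -0.23 to 0.16. *Bmp2*, *Bmp5* and *Bmp6* did not pass the test, with log2 fold changes of -0.52, -0.46 and -0.10, and for *Bmp2* alone among them every 15.5 dpc sample was the lower. The make-up of the class differed accordingly: *Gdf11* was 19.2% ± 1.1 (SD, n = 3) of its summed level per length at 13.5 dpc and 9.20% ± 1.8 at 15.5 dpc. *Gdf10* was 4.12% ± 0.63 and 8.54% ± 0.46, and *Bmp7* 61.9% ± 1.0 and 69.4% ± 4.5. None of these 3 shares overlapped between stages.

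The 3 members called among receptors and co-receptors were all lower. The TGF-beta type I receptor *Tgfbr1* had 1656, 1582 and 1603 normalised counts at 13.5 dpc and 644, 1155 and 853 at 15.5 dpc. The 13.5 dpc samples were tight, the 15.5 dpc samples were spread but all lower, and the log2 fold change was -0.87 ± 0.20 (SE, n = 3, edgeR adjusted p = 0.020). *Bmpr1a*, a type I receptor for BMPs, had the highest mean level per length of the receptors at 13.5 dpc (71.8 TPM) and was level with *Acvr1b* at 15.5 dpc (35.4 and 35.5 TPM). It had 1954, 2073 and 2097 normalised counts at 13.5 dpc and 1128, 1624 and 1381 at 15.5 dpc. It too was lower in every 15.5 dpc sample, by 0.57 on the log2 scale (SE 0.14, n = 3, edgeR adjusted p = 0.026).

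*Tgfbr3*, the co-receptor betaglycan that presents TGF-beta2 and binds inhibins, had 737, 649 and 748 normalised counts at 13.5 dpc and 349, 574 and 436 at 15.5 dpc. The stages did not overlap, and it fell by 0.65 on the log2 scale (SE 0.18, n = 3, edgeR adjusted p = 0.040). Over the 16 alternative fits, by edgeR or DESeq2, the adjusted p of *Tgfbr3* ran from 0.0015 to 0.14, so its call was not kept in all. None of the 4 type II receptors passed the test with TMM factors and all samples, whereas without 15.5 dpc replicate 2, where 23.3% of all genes were lower, all 4 did, at log2 fold changes of -0.58 for *Tgfbr2* and *Acvr2a*, -0.62 for *Acvr2b* and -1.51 for *Bmpr2* (edgeR adjusted p of 0.0075 to 0.024). *Tgfbr2*, which led them by level per length, had 1027, 1093 and 1092 normalised counts at 13.5 dpc and 603, 951 and 810 at 15.5 dpc, a log2 fold change of -0.44 with a 95% interval of -0.82 to -0.06 and an edgeR adjusted p of 0.088 (0.048 with the length trend removed). *Acvr2b* was close to the threshold, at -0.55 with an edgeR adjusted p of 0.052, and passed with DESeq2 (adjusted p = 0.047), upper-quartile factors (0.043), library size only (0.027) and the length trend removed (0.033).

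*Bmpr2*, the type II receptor of BMPs, had the largest standard error of the members, 0.54 on the log2 scale. It had 147, 139 and 259 normalised counts at 13.5 dpc and 37.4, 215 and 88.2 at 15.5 dpc, so that replicate 2 of 15.5 dpc stood among the 13.5 dpc samples and replicate 1 far below them. The 95% interval of its log2 fold change, -1.91 to 0.61, spanned 0 widely. Of the other receptors, the type I receptor *Bmpr1b* was the single one with all 15.5 dpc samples above, at 33.2, 37.8 and 54.2 normalised counts against 29.2, 24.0 and 19.4, yet its log2 fold change of 0.80 did not pass (edgeR adjusted p = 0.065). *Bmpr1b* passed without 15.5 dpc replicate 1 or 2 and with the length or the GC trend removed (edgeR adjusted p = 0.030, 0.036, 0.027 and 0.0499). *Acvr1*, *Acvr1b*, *Acvr2a* and the decoy receptor *Bambi* had log2 fold changes of -0.25, -0.35, -0.36 and -0.36, none of which passed with TMM factors and all samples. *Acvr1*, *Acvr1b* and *Acvr2a* passed without 15.5 dpc replicate 2 (edgeR adjusted p = 0.036, 0.011 and 0.015) and *Bambi* without replicate 1 (0.0062). With library size only, *Acvr1b* and *Bambi* passed as well (0.037 and 0.0097), as did *Acvr1b* with the length trend removed (0.030). As a share of the type I receptors' level per length, *Tgfbr1* was 27.7, 26.2 and 26.1% at 13.5 dpc and 18.8, 23.4 and 20.3% at 15.5 dpc, whereas the share of *Bmpr1a* overlapped.

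**Figure D2:**
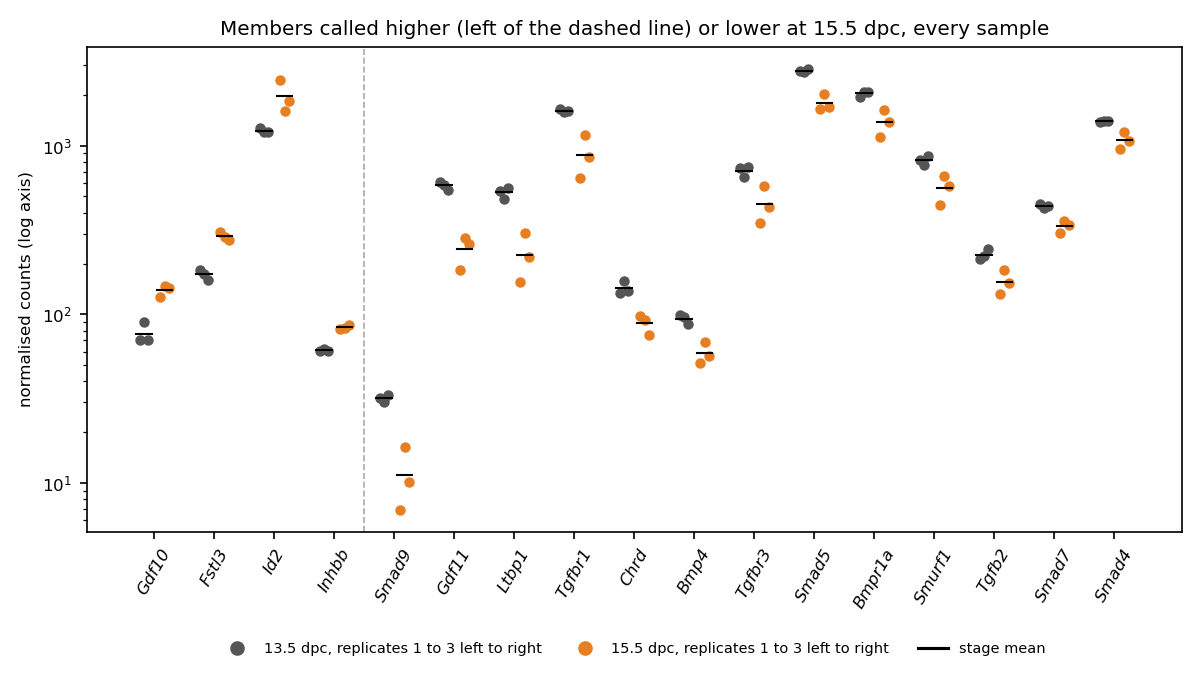
Normalised counts (log axis) of the 17 members called by edgeR, with 1 point per sample, grey for 13.5 dpc, orange for 15.5 dpc, and a bar at each stage mean. The 4 members left of the dashed line were higher at 15.5 dpc, and in most of the 13 to its right replicate 1 of 15.5 dpc was the lowest point and replicate 2 the highest of its stage.

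Extracellular antagonists were called once in each direction. *Fstl3*, a follistatin-like protein that binds and neutralises activins and GDF11, had 184, 172 and 160 normalised counts at 13.5 dpc and 307, 287 and 277 at 15.5 dpc. All 15.5 dpc samples were higher, 1.69-fold in the mean, and the log2 fold change was 0.76 ± 0.11 (SE, n = 3, edgeR adjusted p = 0.0043). Its exons overlap those of *Prss57* on the opposite strand over 47.3% of their bases, but *Prss57* itself had at most 3 counts in any library. *Fstl3* lies on chromosome 10 at 79777272 to 79782630 (mm10).

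*Chrd*, the BMP antagonist chordin, had 134, 159 and 137 normalised counts at 13.5 dpc and 98.3, 93.1 and 75.6 at 15.5 dpc. It was lower in all 15.5 dpc samples, by 0.69 on the log2 scale (SE 0.15, n = 3, edgeR adjusted p = 0.019). The other antagonists did not pass the test. *Fstl1*, the follistatin-like glycoprotein with the highest level per length of all members (mean 231 TPM), had 6263, 6335 and 6366 normalised counts at 13.5 dpc and 4340, 6162 and 5325 at 15.5 dpc, with a 95% interval of the log2 fold change of -0.57 to 0.05. *Nbl1*, second in this class, was at 0.00 with an interval of -0.40 to 0.40. *Fst*, *Nog* and *Grem1* had 4 to 36 counts per library, and the 95% intervals of their log2 fold changes were wide, at -0.54 to 0.90, -2.10 to 0.09 and -0.88 to 0.58.

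The 2 latent TGF-beta binding proteins, which tether latent TGF-beta in the matrix, were called once. *Ltbp1* had 539, 483 and 562 normalised counts at 13.5 dpc and 155, 304 and 219 at 15.5 dpc. It was lower throughout, with a log2 fold change of -1.22 ± 0.22 (SE, n = 3, edgeR adjusted p = 0.0097), whereas *Ltbp3* overlapped between stages with an interval of -0.17 to 0.34. *Ltbp1* accordingly went from 18.0% ± 0.88 (SD, n = 3) of their summed level per length to 8.02% ± 1.6.

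Of the receptor-regulated and common SMADs, *Smad5* and *Smad9* of the BMP side and *Smad4* were called, all lower. *Smad5* had 2782, 2722 and 2851 normalised counts at 13.5 dpc and 1645, 2019 and 1689 at 15.5 dpc. The gap between the stages was wider than the spread within either, and *Smad5* fell by 0.64 on the log2 scale (SE 0.11, n = 3, edgeR adjusted p = 0.0063). *Smad9*, the least abundant SMAD, had 31.9, 30.0 and 33.0 normalised counts at 13.5 dpc and 6.92, 16.4 and 10.1 at 15.5 dpc. It fell by 1.45 on the log2 scale (SE 0.29, n = 3, edgeR adjusted p = 0.014), on only 5, 16 and 8 raw counts at 15.5 dpc.

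*Smad4* had a mean level per length of 84.0 TPM at 13.5 dpc, next to 83.9 TPM for *Smad5*, and of 47.0 TPM at 15.5 dpc, next to 49.4 TPM for *Smad3*, and neither pair was apart beyond its spread. It had 1383, 1409 and 1394 normalised counts at 13.5 dpc and 952, 1205 and 1073 at 15.5 dpc. It was lower in all 15.5 dpc samples but the size was modest, 0.37 on the log2 scale (edgeR adjusted p = 0.044, SE 0.11, n = 3). *Smad1*, *Smad2* and *Smad3* did not pass the test, with log2 fold changes of 0.06, -0.23 and 0.14, but *Smad3* was called higher without 15.5 dpc replicate 1 (edgeR adjusted p = 0.036) and with the length trend removed (0.029), and *Smad2* lower with library size only (0.026). Of the summed level per length of the 5 receptor-regulated SMADs, those of the BMP side (*Smad1*, *Smad5* and *Smad9*) made up 52.2, 50.6 and 52.0% at 13.5 dpc and 44.7, 43.4 and 42.5% at 15.5 dpc. Among the SMADs with *Smad4* included, *Smad5* went from 28.5% ± 0.44 (SD, n = 3) to 21.9% ± 1.1 and *Smad3* from 20.9% ± 0.43 to 27.4% ± 2.0. These shares did not overlap between stages.

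Negative regulators inside the cell were called lower for *Smad7* and *Smurf1*. *Smad7*, the inhibitory SMAD of both branches, had 453, 426 and 441 normalised counts at 13.5 dpc and 303, 359 and 339 at 15.5 dpc. *Smurf1*, a ubiquitin ligase for SMADs and receptors, had 817, 771 and 871 and then 447, 658 and 576. Neither overlapped between stages, and they fell by 0.40 and 0.55 on the log2 scale (edgeR adjusted p = 0.033 and 0.037, n = 3). *Smad6* and *Smurf2* overlapped, with log2 fold changes of -0.10 and -0.26. The summed level of *Smad6* and *Smad7* stood at 22.9% ± 0.95 (SD, n = 3) of that of the receptor-regulated SMADs at 13.5 dpc and 22.8% ± 0.87 at 15.5 dpc.

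Of the 4 ID genes, inhibitors of basic helix-loop-helix transcription factors, *Id2* alone was called. It had 1279, 1199 and 1202 normalised counts at 13.5 dpc and 2455, 1603 and 1833 at 15.5 dpc. All 15.5 dpc samples were higher, with replicate 1 well above the other two, and the log2 fold change was 0.68 ± 0.16 (SE, n = 3, edgeR adjusted p = 0.023). *Id1* had 921, 971 and 885 normalised counts at 13.5 dpc and 1337, 894 and 1044 at 15.5 dpc, and *Id3* had 1299, 1354 and 1266 and then 1592, 990 and 1192. Both overlapped between stages, with 95% intervals of the log2 fold change of -0.12 to 0.59 and -0.45 to 0.34. Without 15.5 dpc replicate 2, *Id1* was called higher, at 0.38 (edgeR adjusted p = 0.029), where 24.7% of all genes were. *Id4* was at 0.15.

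The make-up of the ID class varied little between replicates. *Id2* held 38.5, 35.7 and 37.9% of the summed level per length at 13.5 dpc and 47.2, 47.1 and 46.3% at 15.5 dpc. *Id3* held 27.7, 28.5 and 28.3% and then 21.7, 20.6 and 21.4%. *Id1* held 30.8% ± 0.70 (SD, n = 3) and then 28.6% ± 0.39. Replicate 1 of 15.5 dpc, which was the highest of its stage in the normalised counts of all 4 genes, did not stand apart in these shares.

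**Figure D3:**
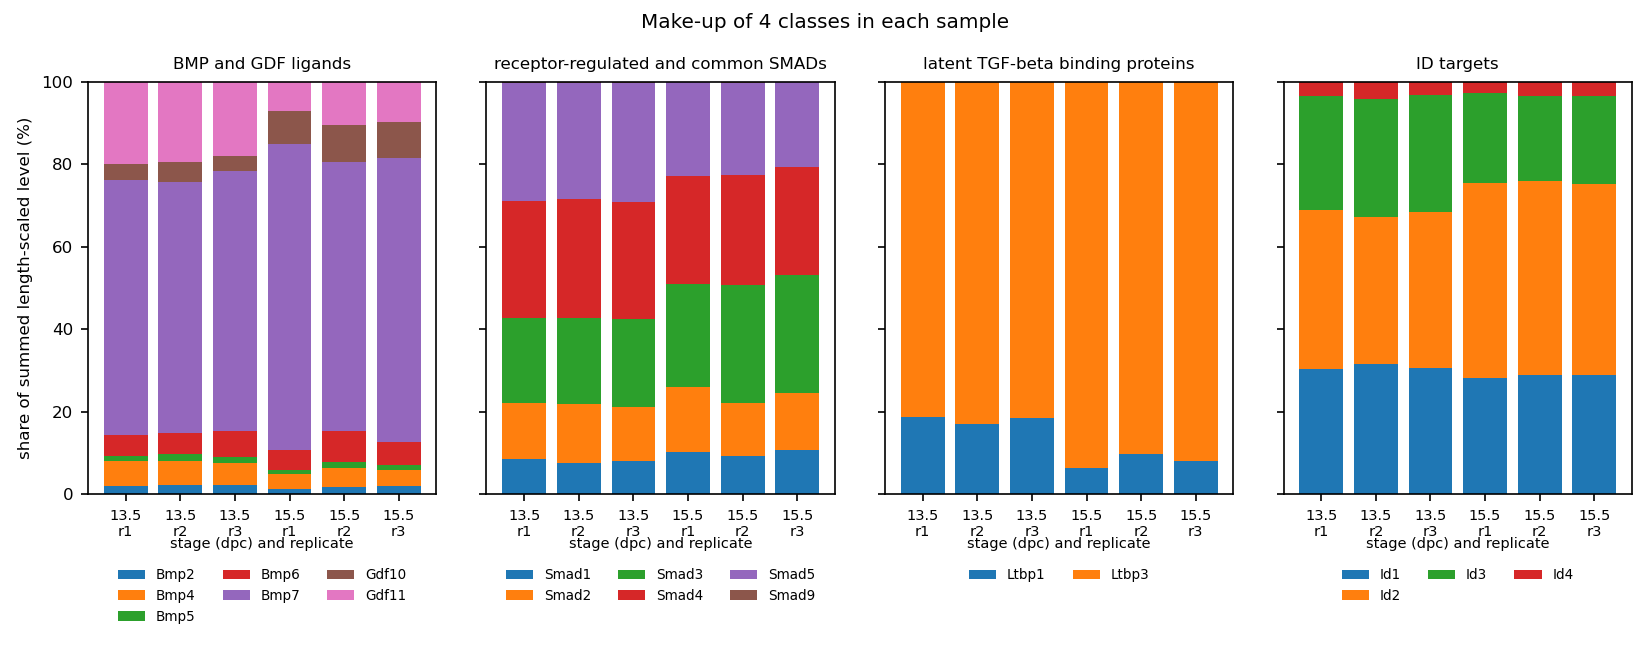
Share of each member in the summed level per length of its class (%), with 1 stacked bar per sample and stage and replicate on the x axis. At 15.5 dpc *Id2* holds 46.3 to 47.2% of the ID class and *Gdf11* 7.14 to 10.5% of the BMP and GDF ligands, while *Smad9* is too low to be seen.

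Summed over a class, levels in TPM did not overlap and were lower at 15.5 dpc in 10 of 11 classes, whereas the activin sums overlapped. In TPM the median over all genes tested was itself -0.50 on the log2 scale. On the TMM scale, where the median of all genes was -0.01, 7 classes were lower without overlap, 2 (TGF-beta ligands and latent TGF-beta binding proteins) overlapped and 2 were higher. Of single genes tested, 23.6% were lower without overlap in normalised counts and 22.8% higher. The class sums on the TMM scale ranged from -0.55 on the log2 scale for type I receptors and -0.50 for type II receptors to 0.33 for ID genes and 0.48 for activin subunits. The ID sum was 578 ± 7.1 TPM (SD, n = 3) at 13.5 dpc and 509 ± 2.9 at 15.5 dpc and so changed direction with the scale. The activin sum was at -0.03 in TPM, and at -0.16 to 0.14 with 1 sample left out. Across members, the mean level per length over all samples ran from 0.56 TPM for *Inhba* to 231 for *Fstl1*. The leaders *Fstl1* and *Id2* (227 TPM) changed places between stages, at 287 ± 10 and 216 ± 5.9 TPM (SD, n = 3) at 13.5 dpc and 175 ± 64 and 239 ± 3.9 at 15.5 dpc.

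The replicates of 15.5 dpc lay further apart than those of 13.5 dpc, with a chi-square per gene of 14.6 to 63.2 between pairs of libraries against 1.61 to 4.94. Replicate 1 had the lowest normalised count of its stage for 34 of the 45 members (75.6%), where it did for 43.9% of all genes tested, and replicate 2 the highest for 29 (64.4%), where it did for 42.6%. Over all genes the log2 difference between these libraries was more negative for genes with longer exons (Spearman's rho = -0.59 across genes, which share the 2 libraries and are not independent). For replicate 1 over 3 and replicate 2 over 3 of 15.5 dpc, rho was -0.49 and 0.53. Between pairs of 13.5 dpc it was -0.33 to -0.03. On the log2 scale, the difference of replicate 1 over replicate 2 was 0.61, 0.58, 0.69 and 0.72 for the short *Id2*, *Id1*, *Id3* and *Nbl1*, and -0.97, -0.84 and -1.24 for the longer *Ltbp1*, *Tgfbr1* and *Smad9*. Members also lay on the other side, with -0.32, -0.42 and -0.69 for the short *Acvr2b*, *Bmp4* and *Bmp6* and 0.43 for the longer *Bambi*. With the trend of each library on gene length removed, 16 members were called lower and 7 higher, where 14.7% and 18.1% of all genes were. There *Id2* was at 0.42 with an edgeR adjusted p of 0.0024 and *Gdf11* at -1.19 with 0.00047. Without replicate 1 of 15.5 dpc, 14 members were lower and 6 higher, where 12.8% and 14.1% of all genes were. Without replicate 2, 21 were lower and 6 higher, where 23.3% and 24.7% were. Without replicate 3 of 15.5 dpc, 2 were lower and 2 higher, where 3.65% and 5.4% of all genes were. Without replicate 1, 2 or 3 of 13.5 dpc, 3 were lower in each case, where 3.29%, 3.74% and 3.84% were, and 1, 2 and 1 higher, where 4.54%, 4.7% and 5.04% were.

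**Figure D4:**
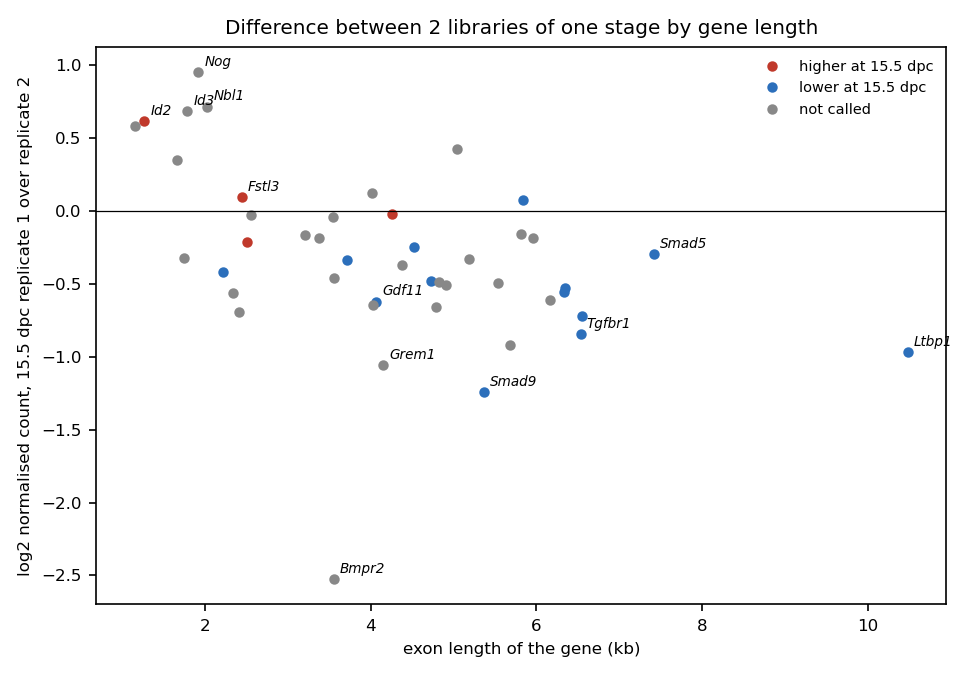
Log2 ratio of normalised counts of 15.5 dpc replicate 1 over replicate 2 against exon length in kilobases for the 45 members, with 1 point per gene coloured by its stage call. *Id2*, *Id3* and *Nbl1* are among the short genes above 0, most longer genes lie below it, *Nog* is the highest point and *Bmpr2* the lowest.

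Further genes of the pathway were taken from a second list of 82, of which 62 were tested. Of these, 7 were called higher and 9 lower (edgeR, adjusted p of 0.05), beside 11.6% and 10.7% of all genes, and their median log2 fold change was -0.07. The highest was *Sostdc1*, a BMP and Wnt antagonist, with 22.8, 23.2 and 22.3 normalised counts at 13.5 dpc and 393, 191 and 275 at 15.5 dpc (log2 fold change 3.64 ± 0.30, SE, n = 3, edgeR adjusted p = 0.00067). *Tob1*, an antiproliferative protein known to bind BMP-side SMADs, had 665, 649 and 731 and then 3013, 2518 and 2882 (2.04 ± 0.11, edgeR adjusted p = 0.00026, n = 3). The ligand *Bmp3*, the BMP modulator *Bmper* and the type I receptor *Acvr1c* were also higher, at 2.67, 1.27 and 1.05 on the log2 scale.

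Of the lower genes, *Tgfbi*, a matrix protein induced by TGF-beta, had 4202, 3479 and 3384 normalised counts at 13.5 dpc and 688, 752 and 626 at 15.5 dpc. It fell by 2.42 on the log2 scale (SE 0.13, n = 3, edgeR adjusted p = 0.00026). The homeobox gene *Msx2*, a known BMP target, had 57 counts over the 13.5 dpc samples and 0 over those of 15.5 dpc, which is at least 13-fold lower when set against a floor of 3 counts over the stage. The ligand *Gdf6* and the BMP modulators *Kcp* and *Chrdl1* were lower by 1.70, 1.33 and 0.75.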

How the data were processed

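RNA-Seq counts of wt pancreata at 13.5 and 15.5 dpc, 3 samples each, were analysed. Per the study's methods, up to 3 embryos were pooled per sample, and poly(A) RNA was made into strand-specific libraries. GSNAP (to mm10) and featureCounts 1.4.6, on reads with a unique alignment, gave the raw counts that the authors deposited, beside the exon length of each gene. Whether counting used the strand is not given in the sources used here. The table holds 37224 genes, 6 samples and no other per-sample column.

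Counts were normalised with TMM factors (0.847 to 1.08) over the 15578 genes kept by filterByExpr, and tested between stages with the quasi-likelihood test of edgeR 4.0.16 (R 4.3.3) without covariates and with Benjamini-Hochberg adjustment over these genes. The study's own tool, DESeq2, was an alternative (version 1.42.0). Standard errors are the log2 fold change over the root of F. TPM were computed from the deposited counts and lengths. Symbols came from an mm10 annotation, which matched 35449 identifiers with at least 99.4% of the counts. The edgeR fit was first tested on simulated counts, with and without a length trend. The exact permutation test was checked on made-up values, and no other step was tested on simulated data.

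Values by sample are given for called members and most class leaders, with others where a result turned on them. The class leaders *Tgfb1*, *Bambi*, *Ltbp3* and *Smurf2* are given only by their log2 fold change or its interval. Of the second pathway list, the 5 highest and 5 lowest called genes are named. The members, lists and markers were chosen with earlier results of these data known. Removal of the GC trend was added after seeing the data. Alternatives were other scalings and filters, DESeq2, the study's thresholds, a block for the replicate number, removal of genes above 1% of counts, the length trend removed (lowess, span 0.5) and each sample left out.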

Additional observations from a re-analysis of the deposited data

How the results depend on the processing

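The counts of called members depended on samples and thresholds. Members called higher numbered 1 to 6 and members called lower 2 to 21 with 1 sample left out in turn, the other pathway genes 5 to 11 higher and 5 to 22 lower, and all genes 1235 to 7620 in either direction. Of all genes, 4.54% to 24.7% were then higher and 3.29% to 23.3% lower. With the thresholds of the study (adjusted p of 0.1, over 100 normalised counts, fold under 0.6 or over 1.6), 2 members were higher and 3 lower, and 3 and 3 of the other pathway genes. Of all genes, 6.3% were higher and 3.58% lower there. With the length trend removed, 7 members and 11 other pathway genes were higher, where 18.1% of all genes were. The same replicate numbers did not pair the samples (correlations of deviations 0.22, -0.22 and 0.04). Under a replicate block 8 members were lower and 3 higher, in place of 13 and 4. Of all genes, 2676 were called there in either direction (17.2%), in place of 3467 (22.3%). The member median was -0.46 with library size only, where the median of all genes moved to -0.22, and -0.42 to -0.22 with 1 sample left out. Of 17 called members, 11 kept an adjusted p of 0.05 in each of the refits that used all samples, 8 of the 13 lower and 3 of the 4 higher. Among those that did not were *Inhbb*, and *Tgfb2* and *Bmp4* under the replicate block (edgeR adjusted p = 0.061 and 0.053). *Fstl3*, *Gdf11* and *Smad5* kept it in all 16 refits, but *Smad5* not under the study's thresholds. The cause was not tested.

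Of 28 uncalled members, 15 passed under another setting, 9 of them (*Bmp2*, *Acvr1b*, *Bmpr1b*, *Tgfbr2*, *Acvr2b*, *Bambi*, *Ltbp3*, *Smad2* and *Smad3*) in a refit with all samples, and 10 without 15.5 dpc replicate 2, *Fstl1* (-0.37) and *Smurf2* (-0.42) included. Without that replicate 24.7% of all genes were called higher and 23.3% lower, and with the length trend removed 18.1% and 14.7%. The share of all uncalled genes that passed under another setting was not computed. Some uncalled members changed sign. With library size only, *Tgfb1* was at -0.18, *Fst* -0.027, *Nbl1* -0.23, *Ltbp3* -0.12, *Smad1* -0.15, *Smad3* -0.061 and *Id4* -0.070. With the length trend removed, *Tgfb1* was at -0.028, *Tgfb3* 0.0088, *Bmp7* 0.031, *Nbl1* -0.14, *Id1* -0.031 and *Id4* -0.026. With upper-quartile factors *Tgfb1* was at -0.0018 and *Nbl1* -0.030, and with the GC trend removed -0.0075 and -0.048. *Nbl1* was at -0.025 with no filter and -0.024 under the replicate block. *Tgfb3* was at 0.0087 with DESeq2's size factors and 0.0021 with DESeq2. Leaving out 1 sample gave ranges of -0.0052 to 0.091 for *Tgfb1*, -0.075 to 0.066 for *Tgfb3*, -0.31 to 0.044 for *Bmp6*, -0.066 to 0.0076 for *Bmp7*, -0.060 to 0.37 for *Fst*, -0.56 to 0.039 for *Grem1*, -0.20 to 0.18 for *Nbl1* and -0.26 to 0.10 for *Id3*.

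On the TMM scale the class sums were -0.064 for TGF-beta ligands, 0.48 for activins, -0.20 for BMP and GDF ligands, -0.55 for type I receptors, -0.48 for the co-receptor and decoy receptor, -0.14 for antagonists, -0.087 for LTBPs, -0.27 for SMADs, -0.33 for inhibitory SMADs and SMURFs and 0.33 for ID genes, against TPM values of -0.57, -0.03, -0.71, -1.06, -0.98, -0.65, -0.60, -0.78, -0.83 and -0.18. Without 15.5 dpc replicate 1 the TPM sums of TGF-beta ligands, LTBPs and type II receptors (-1.01 with all samples) were at -0.38, -0.34 and -0.63. The ID sum was -0.044 with genes above 1% of counts taken out. Without length scaling, shares moved by -6.31 points for *Tgfb2*, 3.01 for *Gdf10*, 2.14 for *Fstl3*, -15.8 for *Ltbp1*, -8.71 for *Smad5* and -8.18 for *Id3*, in place of -4.63, 4.42, 3.22, -10.0, -6.59 and -6.94. Counts were low for *Inhba*, *Fst*, *Nog*, *Grem1* and *Smad9*, at 4 to 46 per library.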
